A study of Mus musculus with 24 samples.

Results

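The 12 hearts of mice with experimental autoimmune myocarditis (EAM) were ordered by how much leucocyte RNA they held, and every other gene was related to that order. The hearts are the 12 of 24 samples titled as myocarditis. They were ordered by Ptprc, the gene of the CD45 protein, and genes were selected on the same 12 hearts, by the Spearman correlation (rho) with Ptprc and by the slope on it. Wild-type male Balb/c mice (BALB/cAnNCrl in the study's methods), 8 to 10 weeks old, were given an SCFA emulsion (Freund's adjuvant) with a myosin heavy chain peptide on day 0 and day 7, and PTX (pertussis toxin) on day 0. Control mice received the same adjuvant with PBS in place of the peptide on both days, and PTX on day 0, so that every heart in the series was exposed to adjuvant and toxin. RNA of a piece of myocardium was sequenced at day 10, 15 or 21 (D10, D15 and D21), from 4 EAM and 4 control mice on each day. The pieces were picked, where possible, for the presence of inflammation, since not every mouse of this strain develops it, so the order is one among the pieces sequenced. In a piece of tissue fewer cells of a type and less RNA per cell cannot be told apart.

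CD45 is a tyrosine phosphatase on the surface of all nucleated blood cells, where it sets the threshold of antigen receptor signalling, and it is the usual marker of leucocytes in a tissue. The resting heart holds a small population of resident macrophages and few other leucocytes. In autoimmune myocarditis, T cells that recognise cardiac myosin are joined by monocytes, macrophages and neutrophils drawn in by chemokines, and fibroblasts are activated around them.

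Ptprc spanned a wide range among the EAM hearts. Levels are given as CPM (a read count divided by the total of its library and scaled to a common sum), with the hearts of a day always listed from the lowest Ptprc to the highest. Ptprc stood at 26.1, 39.8, 54.8 and 202 CPM in the D10 hearts (replicates 2, 4, 3 and 1), at 258, 293, 334 and 339 CPM in the D15 hearts (replicates 3, 2, 4 and 1), and at 46.3, 96.4, 157 and 241 CPM in the D21 hearts (replicates 3, 2, 1 and 4). The 12 control hearts lay between 15.0 and 37.7 CPM with a median of 20.8, and 11 of the 12 EAM hearts were above all of them. The exception was D10 replicate 2. The group means were 80.6 ± 81.5 CPM at D10, 306 ± 38.2 at D15 and 135 ± 83.8 at D21 (SD, n = 4 each). The D15 hearts were the 4 highest, and they overlapped neither the D10 nor the D21 hearts, which overlapped each other. From the lowest heart to the highest Ptprc differed 13-fold, or 3.65 on the log2(CPM + 1) scale that is called the load from here on, against 1.27 among the control hearts.

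**Figure D1:**
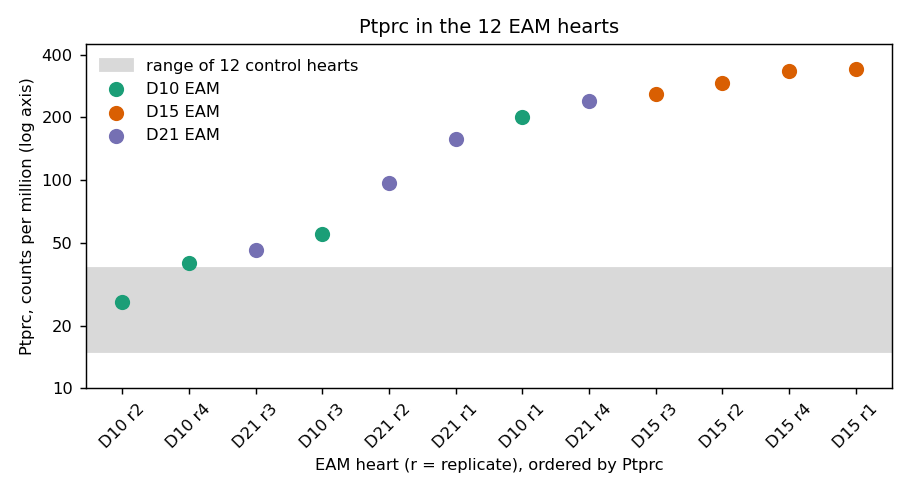
Ptprc in CPM (log axis) in each of the 12 EAM hearts, ordered from the lowest to the highest and coloured by day, with a grey band for the range of the 12 control hearts. The 4 D15 hearts lie at the right end between 258 and 339, and the D10 heart at the left end, at 26.1, lies inside the control band.

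Some libraries stood apart in other ways. The total of counted reads lay between 15814863 and 24980864 in the 12 hearts. The median total was 19258258 reads in the D10 group, 22815111 in the D15 group and 17758800 in the D21 group, so the group with the most Ptprc was also the most deeply sequenced. Per the labels the D21 EAM libraries carry another library code than all other libraries, the D21 control libraries included. Among the EAM hearts D21 and the library code thus cannot be told apart, and the control hearts share the code of the D10 and D15 EAM hearts. Genes of atrial muscle were low in all D21 EAM hearts. Their mean level, in log2(CPM + 1), was 7.77, 8.27, 6.06 and 8.04 in the D10 hearts, 8.08, 6.57, 7.64 and 7.27 in the D15 hearts and 3.40, 2.45, 2.89 and 2.71 in the D21 hearts, against 4.47 to 8.73 in the control hearts. The unweighted mean level of the 13 mitochondrially encoded genes was lowest in D21 replicate 1, at 7.83, where the other EAM hearts held between 9.94 and 11.16. Its share of reads on mitochondrial genes was not the lowest. That share was 3.91%, against 3.19%, 3.19% and 3.79% in D15 replicates 2, 4 and 1.

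Of the 15950 genes that reached 10 reads in 4 or more of the 12 hearts, Ptprc not counted, 2808 (17.6%) followed the load, which means a rho of at least 0.8 and a slope of at least 0.25 log2 units for each log2 unit of Ptprc. Both were taken on log2(CPM + 1), which understates the slope of genes with few reads. Another 1385 (8.68%) opposed it, with a rho of -0.8 or lower and a slope of -0.25 or lower. A further 2205 (13.8%) ignored it, with a rho within 0.3 of zero and a slope within 0.1, and 35 (0.219%) varied between hearts by an SD of at least 1 log2 unit but with a rho within 0.3 of zero. The remaining 9517 lay between these limits. These counts describe the hearts that chose the genes and carry no test. The median slope was 0.47 among the followers, 219 of which had a slope over 1 and so changed by more than Ptprc did. It was -0.35 among the opposers, none of which reached -1, and 0.05 over all genes.

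The split between followers and opposers depended on the scaling. Of both together 67.0% followed when each library was divided by its total, but 53.5% (2364 followers and 2051 opposers) with TMM normalization and 52.8% (2345 and 2096) with DESeq2 size factors. Either scaling moved the median slope of all genes by -0.05. Just inside the limits for followers were Csnk1g3 and Itch, with slopes of 0.25, and Baalc and Brwd3, with a rho of 0.80. Just outside were Zfp703 and Mtmr12, whose slopes also round to 0.25, and Arid5b and Cd63, whose rho of 0.7972 rounds to 0.80. Among the opposers Coq4 and Dcaf6 lay just inside the limit on the slope and Aqp1 and Serpini1 just outside, all with -0.25. Arhgap20 lay just inside the limit on rho, and Bmp6 just outside it.

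The slopes were also taken apart by day. Within the D10 and D15 hearts, which share a library code, all 2808 followers had a positive slope, and within the 4 D21 hearts 2804 of them did. All 1385 opposers had a negative slope in the former and 1383 in the latter. With the day held constant, all 2808 and all 1385 kept their sign, but when slopes with the day as a covariate were held to the same limits 2455 genes followed and 840 opposed. These slopes come from the hearts that chose the genes, so a shared sign is part of the choice.

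The genes that follow and oppose made up a large part of all RNA counted. The followers took between 5.84% and 7.47% of the reads in the control hearts, 7.07% in the EAM heart with the least Ptprc and 27.3% in D15 replicate 2. The opposers took between 32.6% and 36.1% in the control hearts, 34.5% in the EAM heart with the least Ptprc and 11.3% in D15 replicate 2. Since each library is scaled to the same sum, a rise in one share lowers the others.

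**Figure D2:**
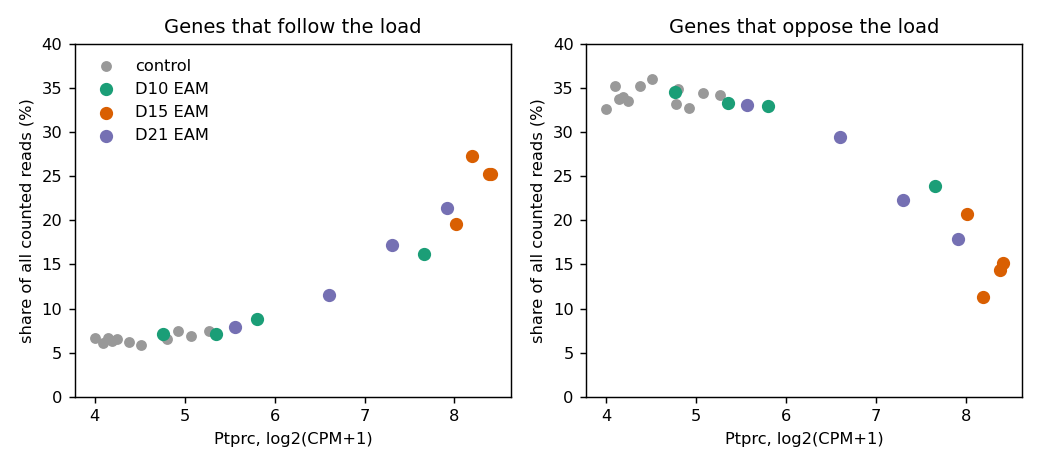
Share of all counted reads (percent) taken by the 2808 genes that follow the load (left) and by the 1385 that oppose it (right), plotted against Ptprc in log2(CPM + 1), with 1 point for each of the 24 hearts. The followers go from 7.07% to 27.3% over the EAM hearts and the opposers from 34.5% to 11.3%, while the grey control hearts stay between 5.84% and 7.47% and between 32.6% and 36.1%.

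The 10 genes that ran closest to Ptprc over the 12 hearts were Tmem229b, Akna, Pik3cd, Tlr1, Myo1f, Gatm, Lpcat2, Sema4a, Gpr132 and Slamf6, by rho and then by Pearson correlation. For 9 genes, Slamf6 not among them, the order of the 12 hearts was the very order of Ptprc. Myo1f, a motor protein of leucocytes, was present at 14, 24.4, 35.1 and 128 CPM in the D10 hearts, 145, 194, 198 and 207 in the D15 hearts and 30.7, 62.3, 118 and 142 in the D21 hearts, with control hearts between 9.97 and 24.2 CPM. Its slope was 1.0 ± 0.03 (SE), so that it changed in proportion to Ptprc. Gatm, the first enzyme of creatine synthesis, was present at 18.4, 25.7, 42.7 and 149.7 CPM in the D10 hearts, 215, 234, 264 and 279.9 in the D15 hearts and 27.6, 74.4, 139 and 193 in the D21 hearts, with a slope of 1.08 ± 0.03. Control hearts held between 16.2 and 26.3 CPM, and the 2 D10 hearts with the least Ptprc lay among them. Pik3cd, the leucocyte catalytic subunit of phosphoinositide 3-kinase, had a slope of 0.81 ± 0.03, Tlr1, a receptor for bacterial lipopeptides, 0.85 ± 0.04, and Lpcat2, an enzyme of platelet-activating factor synthesis, 1.13 ± 0.03. Akna and Tmem229b kept the order with slopes of 0.70 and 0.62.

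Markers of leucocytes in general were set beside Ptprc as a check of the label. All 20 genes of a pan-leucocyte list followed, beside 17.6% of all genes, with a median slope of 0.88. The 20 genes had single slopes from 0.47 for Lsp1, a leucocyte actin-binding protein, to 1.26 for Itgb2, the beta chain of the leucocyte integrins. Their mean level was 4.05, 4.42, 5.11 and 6.57 in the D10 hearts, 6.84, 7.19, 7.14 and 7.24 in the D15 hearts and 4.69, 5.71, 6.59 and 6.87 in the D21 hearts, against 3.31 to 4.39 in the control hearts. Vav1, the exchange factor for Rac in blood cells, was present at 11.9, 12.6, 20.7 and 68.6 CPM in the D10 hearts, 85.8, 115, 107 and 118 in the D15 hearts and 14.8, 33.9, 68.2 and 87.2 in the D21 hearts, with a slope of 0.95 ± 0.04. Control hearts held between 5.30 and 11.6 CPM, below all 12 EAM hearts. The gene lies at chr17:57279100-57328031.

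The cell types did not follow the load alike. Of the monocyte and macrophage markers 13 of 15 followed (median slope 0.85), among them Ccr2, the receptor through which monocytes leave the blood (1.25), Ctss, a lysosomal protease (1.20), and Csf1r, the receptor of macrophage growth factor (0.69). Ccr2 was present at 11.1, 30.9, 69.9 and 279 CPM in the D10 hearts, 366, 261, 366 and 465 in the D15 hearts and 41.9, 139, 221 and 344 in the D21 hearts, against 7.73 to 40.7 CPM in control hearts. It stood above the control range in 10 of the 12 EAM hearts. All 9 markers of natural killer and cytotoxic cells followed (median 0.74), with Gzmb, a granule protease, at 1.02. Of the 16 T cell markers 10 followed (median 0.76), and of the 14 neutrophil markers 7 (median 0.52), led by the decoy receptor Il1r2 (1.39). The T cell marker Cd28 had a negative slope (-0.17). Of 10 dendritic cell markers 2 followed, Itgax (1.44) and Batf3 (0.52), which is near the 17.6% of all genes. Zbtb46 of this list had a negative slope (-0.11), and Cd209a a rho of 0.08. Of 8 eosinophil markers only 2, Siglecf and Ear2, had enough reads, and both followed. The others were left out for too few reads. A marker that is low at a low load passes this filter only through the hearts where it is higher. The 2 genes are thus too few and too selected to set beside the 17.6% of all genes, and no conclusion about eosinophils is drawn.

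Resident macrophage markers had lower slopes than those of monocytes. Only Igf1 of the 10 followed, beside 17.6% of all genes, and Lyve1, Folr2, Cd163 and Gas6 ignored the load, beside 13.8%. The median slope was 0.14, and 0.08 with TMM or size factors. Cd163, the scavenger receptor for haemoglobin, was present at 41.5, 48.5, 37.9 and 40.7 CPM in the D10 hearts, 51.8, 67.1, 38.3 and 39.8 in the D15 hearts and 21.1, 21.5, 20.2 and 18.2 in the D21 hearts, with control hearts between 24.6 and 47.1 CPM. The 4 D21 hearts were the lowest of the 12, below the control range, although 3 of them held more Ptprc than 3 of the D10 hearts. B cell and plasma cell markers were also loosely related to Ptprc, with 0 followers among the 9 measured of 12 and a median slope of 0.16. Ighm and Jchain, parts of secreted immunoglobulin, had slopes of 0.61 and 0.78 with rho of 0.68 and 0.65. Of the mast cell proteases and markers, 6 of 8 had enough reads and 4 of these ignored the load, beside 13.8% of all genes.

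At a like load the levels of cell type markers differed between single hearts. D10 replicate 1 (202 CPM of Ptprc) lay between D21 replicates 1 and 4 (157 and 241 CPM). Its mean level of T cell markers was 2.22, below 3.13 and 3.14 in these D21 hearts, and its mean of MHC class II genes was 5.60, against 6.81 and 7.08. Mmp12, the macrophage elastase, was 10.3 CPM in the D10 heart and 155 and 312 CPM in the D21 hearts. Acod1, the enzyme that makes itaconate in activated macrophages, was reversed, at 154 CPM against 20.8 and 92.7. With 1 D10 heart at this load these are values without a test.

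**Figure D3:**
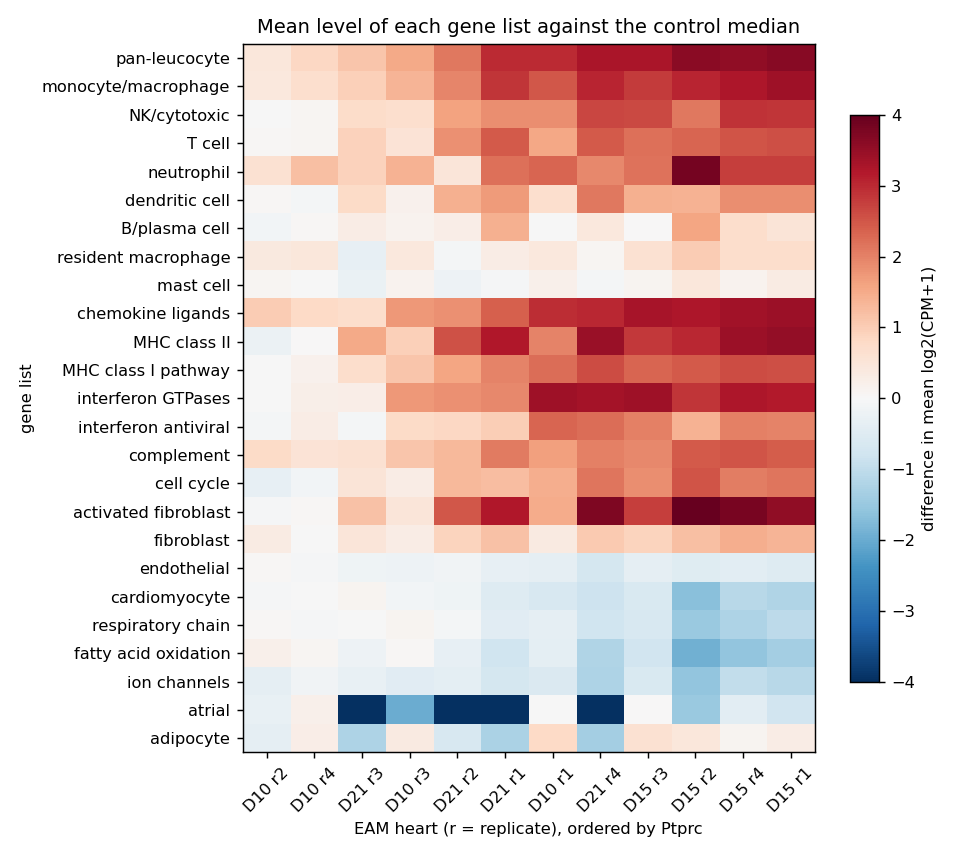
Mean log2(CPM + 1) of each of 25 gene lists (rows) in each EAM heart, ordered by Ptprc (columns), as the difference from the median of the 12 control hearts. Red is higher and blue lower, and the colours end at -4 and 4. Leucocyte lists redden from left to right and cardiomyocyte and metabolic lists turn blue, while the atrial list is dark blue in the 4 D21 hearts whatever their place.

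Antigen presentation followed the load. All 10 genes of the MHC class I pathway did, beside 17.6% of all genes. Their slopes (median 0.62) ran from 0.49 for B2m, the light chain of class I molecules, to 1.05 for Tap1, a subunit of the peptide transporter. Of the MHC class II genes 7 of 9 followed, with a steeper median of 1.07, and the exceptions H2-Oa and H2-Ob had rho of 0.73 and 0.62. Cd74, the invariant chain, was present at 166, 192, 429 and 826 CPM in the D10 hearts, 1573, 2071, 2595 and 2653 in the D15 hearts and 733, 1350.3, 2300.1 and 2529 in the D21 hearts, with control hearts between 137 and 390.2 CPM. The 2 D21 hearts with the most Ptprc lay among the D15 hearts in Cd74, although both held less Ptprc than any of them. Of 14 complement genes 8 followed, steepest Cfb, factor B of the alternative pathway (1.12), while the 3 chains of C1q, made by macrophages, had rho between 0.75 and 0.78. The H2 genes have near-identical copies, and their counts are uncertain where reads were split between them.

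Chemokines and their receptors included some of the steepest followers. Of 25 ligands 23 had enough reads and 17 followed, beside 17.6% of all genes, with a median slope of 0.81. Cxcl9, an interferon-gamma-induced ligand that draws T cells, was present at 3.37, 8.03, 50.6 and 338 CPM in the D10 hearts, 352, 314, 361 and 402 in the D15 hearts and 17.5, 91.4, 105 and 339 in the D21 hearts, with control hearts between 1.51 and 3.45 CPM. Its slope of 1.70 ± 0.14 means that it changed by more than Ptprc, and the 6 hearts with the most Ptprc all lay between 314 and 402 CPM. Ccl5, Cxcl11, Cxcl10 and Ccl22 had slopes of 1.55, 1.5, 1.33 and 1.31. The monocyte ligands Ccl2, Ccl7 and Ccl12 did not reach the limit, with rho of 0.69, 0.59 and 0.11, while the receptors Ccr1 and Ccr2 both had 0.96. Of 12 receptors measured 6 followed.

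Of 19 signalling genes that the study names, in its network or as already known in this disease, 17 followed, beside 17.6% of all genes. The 19 genes had a median slope of 0.85. The study chose most of this list on these samples, so its count is not independent evidence. The steepest slopes were those of Il1b, the inflammasome cytokine (1.29), Itgb2 (1.26) and Itgb7, an integrin of gut-homing lymphocytes (1.25), and Btk, a kinase of B and myeloid cells, lay at the median. The lowest slopes were those of Nfkb1 (0.33) and of the exceptions Traf2 (0.19) and Rac1 (0.16). Traf2, an adaptor of tumour necrosis factor receptors, was present at 23.8, 26.9, 31.6 and 35.1 CPM in the D10 hearts, 34.7, 39.9, 38.6 and 42.1 in the D15 hearts and 26.3, 31.9, 39.0 and 43.6 in the D21 hearts, with control hearts between 24.4 and 28.8 CPM. Its rho was 0.84, yet it differed less than 2-fold over all 12 hearts.

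The genes with the steepest slopes included several that are known from activated macrophages and fibroblasts. The 10 steepest among followers with a mean of at least 1 CPM ran from 1.66 for Ubd, a ubiquitin-like modifier induced by interferon-gamma, to 2.52 for Arg1, the arginase of alternatively activated macrophages. Arg1 was present at 0.267, 0.606, 4.15 and 86.3 CPM in the D10 hearts, 200.5, 785, 386 and 344 in the D15 hearts and 0.759, 31.8, 127 and 141 in the D21 hearts, with control hearts between 0 and 0.446 CPM. The gene lies at chr10:24915221-24927484 in the build of the counts, GRCm38. The 3 hearts with the least Ptprc held at most 0.759 CPM of it, and every D15 heart held more than any D10 or D21 heart. Tnc, the matrix protein tenascin C of injured tissue, had a slope of 1.90 ± 0.19, F10, coagulation factor X, 1.85 ± 0.08, and Serpinb2, a protease inhibitor of macrophages, 1.81 ± 0.13. Acod1 had 1.82 ± 0.17, and Slc7a11, the cystine importer, 1.79 ± 0.18. Mmp12 and Spp1, osteopontin, were looser, with rho of 0.86 and 0.87. Mmp12 was present at 4.54, 0.960, 2.26 and 10.3 CPM in the D10 hearts, 133, 900.0, 513 and 365 in the D15 hearts and 17.1, 61.8, 155 and 312 in the D21 hearts, with control hearts between 0.121 and 7.67 CPM. Of the D10 hearts only the one with the most Ptprc lay above that range, and it held less Mmp12 than any D15 or D21 heart.

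**Figure D4:**
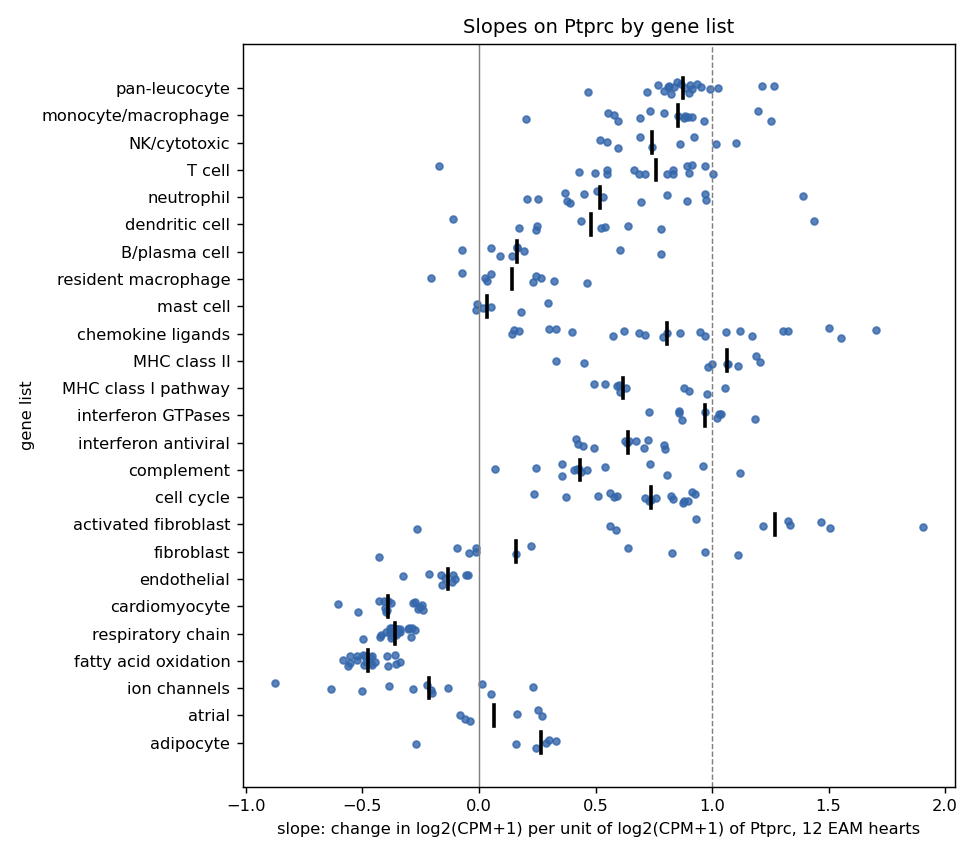
Slope of each gene on Ptprc over the 12 EAM hearts (log2 units per log2 unit), with 1 point per gene, by gene list, and a black bar at the median of the list. The solid line marks 0 and the dashed line 1. The activated fibroblast list has the highest median, 1.27, and the fatty acid oxidation list the lowest, -0.48. With the day held constant (not drawn) these medians are 0.83 and -0.31, and that of the interferon GTPases is 1.22.

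Stromal genes did not move alike, within a list or between lists. Of 10 genes of activated fibroblasts 7 followed, beside 17.6% of all genes. The list had a median slope of 1.27, or 0.83 with the day held constant. Among the followers were Timp1, a protease inhibitor (1.51), Lox, which cross-links collagen (1.47), and Fn1, fibronectin (1.22). Postn, periostin, and Ltbp2 did not follow, with rho of 0.49 and 0.76, and Acta2, smooth muscle actin, had a slope of -0.27. Of 11 general fibroblast markers 3 followed, the collagens Col1a1, Col1a2 and Col3a1 (1.11, 0.97 and 0.83), beside 17.6% of all genes. Another 3, Dcn, Tcf21 and Pi16, ignored the load, beside 13.8%. Mfap5 and Gsn lay between the limits, with slopes of 0.64 and -0.43. Col1a1 was present at 306, 234, 366 and 617 CPM in the D10 hearts, 1786, 5991, 5483 and 4398 in the D15 hearts and 900.3, 1501, 2832 and 4201 in the D21 hearts, with control hearts between 141 and 336 CPM. D10 replicate 1, with 202 CPM of Ptprc, held less Col1a1 than any D21 heart, the lowest of which had 46.3 CPM of Ptprc. Endothelial markers had a median slope of -0.13 (-0.20 with TMM and -0.21 with size factors) and 1 opposer of 10, near the 8.68% of all genes, which was Kdr, the main receptor of vascular endothelial growth factor. Of 5 genes of activated endothelium the adhesion molecules Vcam1 and Selp and the atypical chemokine receptor Ackr1 followed, while the adhesion molecules Icam1 and Sele had rho of 0.78 and 0.69.

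Cell cycle genes ran with the load as a block, since 16 of 17 followed, with slopes from 0.37 for Mcm2, a replication helicase subunit, to 0.93 for Top2a, topoisomerase II alpha. The exception was Pcna (0.23). Interferon-induced genes were partly followers. Of 11 GTPases of the Gbp and Irg families 9 were measured and 5 followed (median slope 0.97), and of 12 antiviral genes 3 followed (median 0.64), Mx1, Oas1a and Oasl2, beside 17.6% of all genes. Another 8 antiviral genes had rho between 0.64 and 0.78, and Ifi44 missed the limit with a rho of 0.7972. The mean level of the antiviral genes was 3.40, 3.77, 4.26 and 5.82 in the D10 hearts, 5.51, 4.86, 5.49 and 5.47 in the D15 hearts and 3.40, 4.32, 4.46 and 5.73 in the D21 hearts. D10 replicate 1 was the highest of all 12, above the D15 hearts with more Ptprc, and the 3 hearts with the least Ptprc lay within the control range of 3.28 to 3.79.

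Heart muscle genes opposed the load. Of 15 cardiomyocyte markers 12 opposed it, beside 8.68% of all genes, and the others, Tnnt2, Ttn and Ryr2, also had negative slopes. The 15 markers had a median slope of -0.39. Their mean level was 11.50, 11.53, 11.43 and 10.92 in the D10 hearts, 10.95, 9.89, 10.43 and 10.36 in the D15 hearts and 11.65, 11.39, 11.02 and 10.71 in the D21 hearts, against 11.51 to 11.68 in the control hearts. Atp2a2, the calcium pump of the sarcoplasmic reticulum, was present at 10552, 10417, 9403 and 6996 CPM in the D10 hearts, 6776, 2795, 4891 and 4461 in the D15 hearts and 9607, 8346, 6300.5 and 5418 in the D21 hearts, with control hearts between 9457 and 10871 CPM. Of the 4 hearts with the least Ptprc 3 lay within the control range and 1 just below it, and the other 8 hearts lay below it. All 24 nuclear genes of the respiratory chain opposed the load (slopes from -0.50 for Cox7a1 to -0.27 for Sdhd), as did all 20 of fatty acid oxidation (from -0.58 for Hadh to -0.34 for Cd36). No opposer of any list had a slope as steep as -1, so the largest differences were on the side of the followers.

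Among the lowest slopes of the opposers with a mean of at least 1 CPM were those of Aqp6, Lrtm1, Kcnip2, Armc2, Ucp3, Ces1d, Kcnv2, Mylk4 and Efnb3, from -0.99 to -0.75. Kcnip2, the subunit that sets the fast transient outward potassium current of the ventricle, was present at 364, 314, 315 and 142 CPM in the D10 hearts, 123, 19.3, 45.6 and 62.4 in the D15 hearts and 341, 284, 177 and 73.1 in the D21 hearts, with control hearts between 342 and 415 CPM. The gene lies at chr19:45791839-45816061. The 5 hearts with the least Ptprc lay between 284 and 364 CPM and the 4 D15 hearts between 19.3 and 123 CPM, so a straight line with a slope of -0.87 ± 0.17 describes it poorly. Hcn2, a pacemaker channel, and Kcnd2, the pore of the same outward current, also opposed the load (-0.63 and -0.50), while Kcnq1 ignored it. Ucp3, a mitochondrial carrier of muscle, was present at 69.9, 50.6, 51.4 and 41.0 CPM in the D10 hearts, 8.58, 4.0, 3.57 and 5.64 in the D15 hearts and 23.7, 28.9, 35.1 and 17.7 in the D21 hearts, with control hearts between 18.4 and 88.6 CPM. In Ucp3 the D15 hearts were below every control heart, and its slope of -0.86 shrank to -0.19 with the day held constant.

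Of 17 glycolytic genes 6 followed, 3 opposed and 3 ignored the load, beside 17.6%, 8.68% and 13.8% of all genes. Hk3, the hexokinase of myeloid cells (1.33), the lactate exporter Slc16a3 (1.16), Slc2a1 (0.82), Hif1a (0.64), Eno1 (0.53) and Pfkp (0.48) followed. Pfkm, the muscle form of phosphofructokinase (-0.48), Ldhb, the heart form of lactate dehydrogenase (-0.48), and the insulin-regulated transporter Slc2a4 (-0.52) opposed, and Hk1, Hk2 and Ldha ignored the load. Hk2 was present at 331, 351, 320.0 and 268 CPM in the D10 hearts, 311, 252, 382 and 279 in the D15 hearts and 337, 296, 235 and 344 in the D21 hearts, and the EAM hearts overlapped the control hearts (317 to 405 CPM). The median slope of the 17 genes, 0.06, turned negative with DESeq2 size factors. Of genes often used as references, Actb, B2m, Gusb and Ywhaz followed the load (0.53, 0.49, 0.63 and 0.26), while Hprt and Tbp had slopes of 0.11 and 0.12. Of 7 cardiac stress genes Nppb, Ankrd1 and Acta1 ignored it, beside 13.8% of all genes, and the others lay between the limits, with slopes of 0.27 for Nppa, -0.19 for Myh7, 0.11 for Xirp2 and 0.52 for Gdf15. Nppb, brain natriuretic peptide, was present at 396, 372, 396 and 482 CPM in the D10 hearts, 356, 391, 382 and 376 in the D15 hearts and 429.9, 422, 418 and 559 in the D21 hearts, with control hearts between 261 and 379 CPM. Of the 12 EAM hearts 9 lay above the highest control heart, although the load did not order them.

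Among the 35 genes that varied without the load were 5 of the 6 atrial markers and 3 mitochondrially encoded genes. Myl7, the atrial light chain of myosin, was present at 212, 412, 129.5 and 335 CPM in the D10 hearts, 393, 76.7, 226 and 179 in the D15 hearts and 10.2, 0.60, 0.674 and 0.524 in the D21 hearts, with control hearts between 43.4 and 612 CPM. Bmp10, a ligand made by the right atrium, was present at 156, 174, 6.89 and 142 CPM in the D10 hearts, 166, 58.5, 105 and 54.4 in the D15 hearts and 0.0632, 0.218, 0.156 and 0.291 in the D21 hearts, with control hearts between 0 and 246 CPM. The D21 hearts were the lowest 4 of the 12 in both, and in Bmp10 the control hearts spread as widely. The fatty tissue marker Adipoq, a hormone of adipocytes, was present at 1.76, 3.28, 3.82 and 5.29 CPM in the D10 hearts, 5.05, 7.29, 3.40 and 6.57 in the D15 hearts and 0, 0.60, 0.104 and 0 in the D21 hearts, again lowest in the D21 hearts. A value of 3 counts corresponds to between 0.120 and 0.190 CPM in these libraries. The mitochondrial gene mt-Atp6 was present at 464, 831, 251 and 610.4 CPM in the D10 hearts, 800.4, 1844, 587 and 1158 in the D15 hearts and 1894, 736, 15.2 and 782 in the D21 hearts, and at 28.7 to 2545 CPM in control hearts. Mitochondrial genes have near-identical copies in the nucleus, and counts of this one are uncertain. By contrast mt-Nd1, mt-Nd2, mt-Nd5, mt-Nd6 and mt-Cytb opposed the load.

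**Figure D5:**
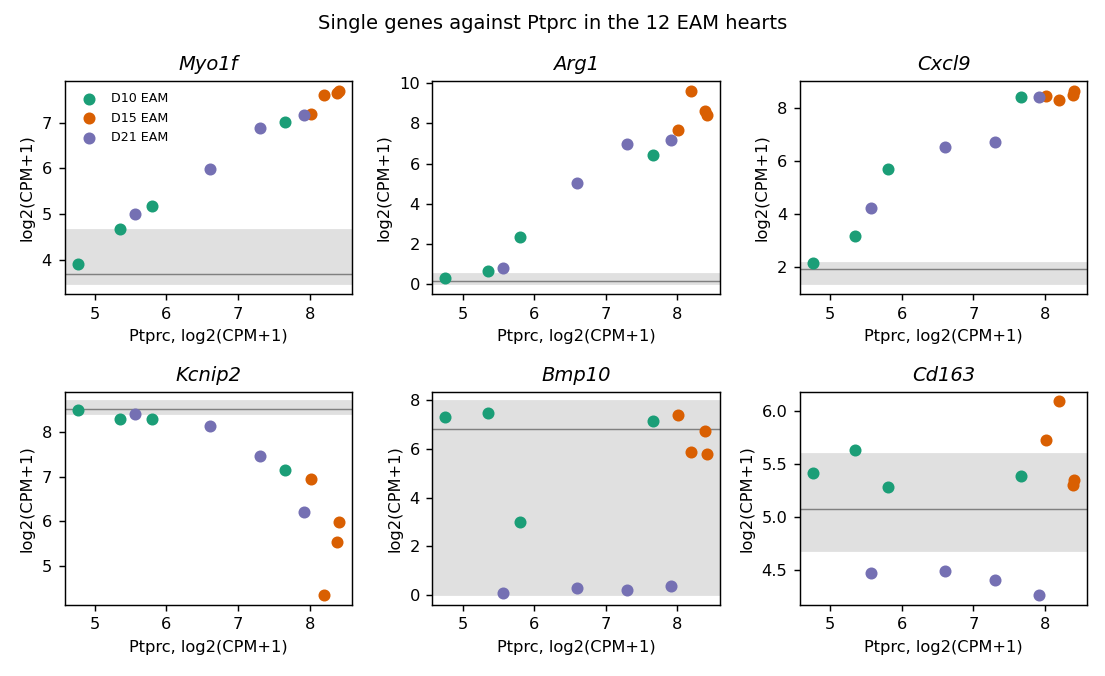
Level in log2(CPM + 1) of 6 single genes against Ptprc in log2(CPM + 1), with 1 point for each EAM heart, coloured by day, a grey band for the range and a grey line for the median of the 12 control hearts. Myo1f, Arg1 and Cxcl9 climb with Ptprc, Kcnip2 stays near the control band and then drops, and Bmp10 and Cd163 split by day with the 4 D21 hearts lowest.

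The sequence just before the start of 4 genes is shown because these genes mark the ends of the order: Ptprc, which sets it, Vav1 and Cxcl9, which follow it, and Kcnip2, which opposes it. Each window is 250 bases long and comes from RefSeq, build GRCm38.p6, written in the direction of the gene, and capitals mark matches to 5 short motifs on either strand.
Ptprc (chr1:138175306-138175555, minus strand): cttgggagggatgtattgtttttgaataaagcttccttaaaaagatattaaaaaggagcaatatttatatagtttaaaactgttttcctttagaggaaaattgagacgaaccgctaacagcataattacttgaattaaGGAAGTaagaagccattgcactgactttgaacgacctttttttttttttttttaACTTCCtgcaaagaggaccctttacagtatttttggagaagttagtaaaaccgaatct
Vav1 (chr17:57278850-57279099, plus strand): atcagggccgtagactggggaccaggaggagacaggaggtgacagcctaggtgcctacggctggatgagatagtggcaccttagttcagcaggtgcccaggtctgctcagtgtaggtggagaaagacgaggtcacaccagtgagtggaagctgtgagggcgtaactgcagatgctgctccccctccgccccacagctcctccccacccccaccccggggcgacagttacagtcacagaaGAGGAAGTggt
Cxcl9 (chr5:92328080-92328329, minus strand): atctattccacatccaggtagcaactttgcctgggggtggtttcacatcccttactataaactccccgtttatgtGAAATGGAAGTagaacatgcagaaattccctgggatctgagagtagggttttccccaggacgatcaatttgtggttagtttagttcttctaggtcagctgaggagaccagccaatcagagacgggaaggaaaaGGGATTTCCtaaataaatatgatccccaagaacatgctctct
Kcnip2 (chr19:45816064-45816313, minus strand): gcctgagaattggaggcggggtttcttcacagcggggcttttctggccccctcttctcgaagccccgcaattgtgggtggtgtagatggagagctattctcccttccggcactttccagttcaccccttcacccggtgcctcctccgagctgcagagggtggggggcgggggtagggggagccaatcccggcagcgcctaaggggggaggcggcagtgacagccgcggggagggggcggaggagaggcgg

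The motifs were GAGGAAG (PU.1-type, after the myeloid factor that Spi1 encodes), GGAAGT (ETS-type), GAAANNGAA (interferon-type), GGGANTTCC (NF-kB-type) and AAGGTCA (ERR-type, after a family of factors of oxidative metabolism), and the first and second overlap in GGAAG. The Ptprc window shown held 2 ETS-type matches. Another Ptprc window (chr1:138175127-138175376), which overlaps it and is not shown, held 1. The Vav1 window held 1 PU.1-type and 1 ETS-type match that overlap, the Cxcl9 window 1 match each of the ETS, interferon and NF-kB type, and the Kcnip2 window 0. A window was found for 11515 of the genes measured, by symbol, and a gene with several starts counts as holding a motif if any of its windows does. GAGGAAG was in a window of 17.2% of 2145 followers, 11.3% of 1028 opposers and 12.1% of 1490 genes that ignore the load, against 13.3% of all genes measured and 10.6% of all 32851 windows. GAAANNGAA was in 10.8%, 6.91% and 7.85% (all genes 7.75%, all windows 7.13%). GGAAGT was in 30.6%, 21.2% and 26.0% (26.5% and 19.7%), GGGANTTCC in 2.61%, 0.778% and 2.28% (2.21% and 1.43%), and AAGGTCA in 3.68%, 4.28% and 2.89% (3.56% and 4.08%). These are shares of letters found, without a test.

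The 12 control hearts, which took no part in choosing the genes, allowed a test of whether the same genes go with Ptprc without EAM. In edgeR's quasi-likelihood test with the day as a covariate, 0 of 15310 genes passed an FDR of 0.01. At an unadjusted p under 0.05, 977 genes (6.38%) had a positive slope and 530 (3.46%) a negative one, and at an FDR under 0.05 there were 37 genes (0.242%) with a positive and 1 with a negative slope. Without D21 control replicate 4 the negative count was 252, and without D10 control replicate 1 it was 351. Scaled by the totals alone the counts at that p were 1211 and 260. The smallest FDR over all genes rose to 0.102 without D10 control replicate 1, 0.0830 without D10 control replicate 4, 0.0862 without D21 control replicate 3 and 0.131 without D21 control replicate 4, so every FDR under 0.05 in the control hearts was lost when any one of these 4 was left out. The median slope over all genes was -0.01. All 20 pan-leucocyte genes had positive slopes with a median of 0.85, 19 at p under 0.05 and 7 at an FDR under 0.05. The lists of T cell, natural killer and B cell genes held 0 genes at that p. Cd52, a surface peptide of lymphocytes and monocytes, had a slope of 1.52 ± 0.22 (SE, FDR 0.0242), Coro1a, an actin regulator, 1.06 ± 0.18 (FDR 0.0326), Itgam, the alpha chain of the myeloid integrin, 1.05 ± 0.19 (FDR 0.041) and Cd74 0.99 ± 0.17 (FDR 0.0311). All of these values miss the threshold of 0.01.

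Other lists did not carry over equally to the control hearts. At p under 0.05 in the positive direction were 15 of 15 monocyte and macrophage genes, 10 of 11 fibroblast genes, 7 of 8 MHC class II genes, 12 of 17 chemokine ligands and 10 of 14 complement genes, beside the 6.38% of all genes. The fibroblast genes are the ones of which only the 3 collagens followed in EAM. Positive at that p were 0 of 6 T cell, 0 of 3 natural killer and cytotoxic and 4 of 10 activated fibroblast genes. In EAM 10 of 16, 9 of 9 and 7 of 10 genes of these lists followed. Of 17 cell cycle genes 0 had a positive slope at that p by edgeR, with a median of 0.09. Cardiomyocyte genes had a median of -0.09 and those of the respiratory chain of -0.01, with 0 of 15 and 0 of 24 negative at that p. Over the classes, 2483 of the 2808 followers could be tested in control hearts, of which 643 (25.9%) were positive at p under 0.05 and 2006 had a positive slope, with a median of 0.18. Of the 1385 opposers 95 (6.86%) were negative at that p, with a median of -0.05. Ptprc spans 1.27 log2 units in the control hearts, which limits how well their slopes are known.

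Whether hearts of different days differ at the same load was tested in the 12 EAM hearts with the load as a covariate in edgeR, on the log2 scale. The median difference over all genes was -0.02 for D15 against D10 and 0.03 for D21 against D15. The D15 hearts do not overlap the others in Ptprc, so these comparisons rest on a straight line through the load, and a difference of day and a bend of the line cannot be told apart. Between D15 and D10, 0 of 15950 genes differed 2-fold or more, in either direction, at an FDR under 0.01, the smallest FDR being 0.124, while 1153 (7.23%) were higher and 1276 (8.0%) lower at D15 at an unadjusted p under 0.05. These counts were 658 and 681 without D10 EAM replicate 1, 915 and 767 without D21 EAM replicate 3, and 1464 and 2126 without D15 EAM replicate 3. On the lower side were interferon-induced genes, with 11 of 12 antiviral genes (median difference -1.02 on the log2 scale) and 8 of 9 GTPases (median -1.04) lower at that p. On the higher side were 5 of 9 MHC class II genes (median 0.78), 5 of 16 T cell genes (0.42) and 6 of 10 genes of activated fibroblasts (1.61). Ucp3 had the smallest p (7.76e-06), with a log2 difference of -2.83 ± 0.37. The clock gene Per1 was 1.39 ± 0.27 and Slc7a11 2.33 ± 0.47, both at an FDR of 0.234.

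Between D21 and D15 at the same load, again 0 of 15950 genes differed 2-fold or more at an FDR under 0.01, the smallest FDR being 0.0288. At an FDR under 0.05, 127 genes (0.796%) were higher at D21 and 135 (0.846%) lower, of which 21 and 40 differed at least 2-fold, and at an unadjusted p under 0.05 there were 2384 (14.9%) and 1681 (10.5%). Scaled by the totals alone the latter counts were 1943 and 2018, with the lower side the larger. No gene had an FDR under 0.05 without D21 EAM replicate 1 (smallest FDR 0.111), D10 EAM replicate 2 (0.0681) or D15 EAM replicate 1 (0.0516), so every FDR under 0.05 for this comparison was lost when any one of these 3 was left out. The 6 atrial genes were all lower at p under 0.05, 4 of them at an FDR under 0.05, with Sln, a regulator of the calcium pump, at -6.95 ± 0.85 and Bmp10 at -9.04 ± 1.33 (FDR 0.0288 and 0.0319). Their part in the other differences was not tested. Of 6 adipocyte genes 5 were lower and 1 higher at p under 0.05. Resident macrophage genes were lower in all 10 cases, 7 at p under 0.05, with Cd163 at -1.34 ± 0.19 (FDR 0.0319), and Vsig4, the complement receptor of tissue macrophages, was -2.08 ± 0.25 (FDR 0.0288). Of 16 T cell genes 10 were higher at p under 0.05, 4 of them at an FDR under 0.05.

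Foxp3, the factor of regulatory T cells, was present at 0.160, 0.151, 0.269 and 1.10 CPM in the D10 hearts, 3.04, 2.68, 3.78 and 3.84 in the D15 hearts and 1.58, 3.06, 4.57 and 4.83 in the D21 hearts, and was 1.20 ± 0.23 log2 units higher at D21 at the same load (FDR 0.0426). Ctla4, the inhibitory receptor of activated and regulatory T cells, differed by 1.25 ± 0.27 (FDR 0.0467). The 2 D21 hearts with the most Ptprc held more Foxp3 than any D15 heart, and the D10 heart with 202 CPM of Ptprc held less than any D21 heart. All 9 MHC class II genes were higher at D21 at p under 0.05, with a median difference of 0.78, and 1 at an FDR under 0.05. Igha, the constant region of IgA, was 3.17 ± 0.63 higher (FDR 0.0426). Of 15 cardiomyocyte genes 6 were higher at p under 0.05, and of 24 respiratory chain genes 9, beside 14.9% of all genes. None of these genes passed an FDR of 0.01, and the FDRs under 0.05 were lost when any one of the 3 hearts named above was left out.

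D10 was the only day on which EAM and control hearts overlapped in Ptprc, and there they were compared with the load as a covariate. The overlap was narrow. Of the D10 EAM hearts only replicate 2 (26.1 CPM) lay within the range of the D10 control hearts (21.8 to 37.7 CPM). In edgeR 0 of 15028 genes differed 2-fold or more, in either direction, at an FDR under 0.01, the smallest FDR being 0.0597, while 569 (3.79%) were higher and 371 (2.47%) lower in EAM at an unadjusted p under 0.05. These counts were 299 and 176 without D10 EAM replicate 2, 450 and 216 without D10 control replicate 2, and 1012 and 1110 without D10 EAM replicate 4, where the lower side became the larger. Of 20 chemokine ligands 13 were higher and 1 lower at that p, with a median log2 difference of 0.88, against 0.00 over all genes. Cxcl9 was 1.89 ± 0.52 and Ccl2 1.15 ± 0.36 (unadjusted p = 0.0047 and 0.00997, edgeR fitted across all genes). Of the pan-leucocyte genes 3 of 20 were higher at that p, with a median of 0.17. Genes of the mesothelium, the surface layer of the heart, were also higher, 3 of 5 at that p, with Msln at 3.14 ± 0.40 and Lrrn4 at 2.79 ± 0.38 (FDR 0.102 and 0.125). All 6 atrial genes were higher at that p too, with a median of 2.0, and the part of the piece of tissue in these differences was not tested. A single EAM heart, replicate 1, has a load of 7.66, against 5.80 or less in the other 7 hearts, and sets much of the slope of this line.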

How the data were processed

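The authors deposited raw read counts for each gene and library, made per the labels and the study's methods by aligning directional reads to GRCm38 with HISAT2 2.0.4, removing duplicate reads with Picard and counting with featureCounts. The use of strand in the counting was not given in the sources used here. Genes that overlap, and those with near-identical copies (H2, Gbp, Ly6 and mitochondrial genes, Gapdh), are uncertain. The tables hold 41388 genes and 92 spike-in controls without reads.

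CPM was the count divided by the column sum of the library. Genes that reached 10 reads in 4 or more of the hearts used were kept. Spearman rho and the least-squares slope of log2(CPM + 1) on that of Ptprc were computed over the 12 EAM hearts (Python 3.11.15, pandas 2.3.3, numpy 2.4.6, scipy 1.17.1, matplotlib 3.10.9). Since the hearts and genes were chosen on these values, they carry no p-value. The members and gene lists were chosen with earlier results of these data known, and 1 list holds signalling genes that the study names.

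Tests used edgeR 4.0.16 (quasi-likelihood, TMM normalization, R 4.3.3) on the counts, with Benjamini-Hochberg adjustment over all genes and limits of an FDR of 0.01 and, except for slopes, a 2-fold change. They compared slopes in the 12 control hearts with the day as a factor, days at equal load in the EAM hearts, and EAM with control at D10 at equal load. The scripts were tested on simulated data. Nothing beyond the labels says how samples of a group relate, so p-values measure the spread between these samples only. DESeq2 1.42.0, limma 3.58.1 (voom), other scalings, filters, covariates and leaving out each heart were tried as alternatives.

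Named genes were the 10 most like Ptprc, the 10 steepest slopes in each direction and the 8 most variable genes without the load (mean of at least 1 CPM), up to 4 members of each list by mean level with any whose class differed from its list, the study's signalling genes, and up to 5 genes per direction and test. In the tests, which called no gene, and among list members, further genes were named after their values were seen. Some genes that the rule names are not reported here. Library totals of 15814863 to 24980864 reads put 3 counts at 0.120 to 0.190 CPM, which covers counting error only.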

Additional observations from a re-analysis of the deposited data

Results flagged for a closer look

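The gap between the most extreme heart and its neighbour, as a share of the range of its group of 4, was compared with Dixon's critical value for 32 measures in each of the 3 EAM groups. Of these 96 comparisons 10 passed, and chance flags about 1 in 20 groups. The measures are not independent, since the hearts were ordered by Ptprc and many of the genes were chosen for following or opposing it, so that these values describe the hearts and test nothing. In 7 of the 10, D10 replicate 1 stood apart, which largely restates its Ptprc. It was the highest of the D10 hearts in Ptprc (share of the range 0.8365), Vav1 (0.8445), Cxcl9 (0.859), Arg1 (0.9549) and Foxp3 (0.8765), and the lowest in the share of reads of genes that oppose the load (0.856) and in the mean of the cardiomyocyte markers (0.8328). D15 replicate 2 was the lowest D15 heart in the mean of the interferon-induced antiviral genes (0.9392). D21 replicate 4 was the highest D21 heart in Nppb (0.9156), and D21 replicate 3 the highest in Myl7 (0.9844), at 10.2 CPM where the other 3 held 0.524 to 0.674 CPM.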

How the results depend on the processing

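Leaving out each heart gave 2667 to 2971 followers, 1201 to 1620 opposers, 2013 to 2365 genes that ignore the load and 31 to 42 that vary without it. The opposers numbered 840 with the day as a covariate of the slope and 2096 with DESeq2 size factors, the genes that ignore the load 7066 without a filter, and those that vary 9 in the D10 and D15 hearts alone. Gene slopes moved by more than their error in 137 of 1428 recomputed values, with no slope of a follower or opposer reversed. List medians moved by more than the SD of their members' slopes in 23 of 882. Changes of sign were not counted for list medians. With TMM the mast cell median went from 0.0357 to -0.0016 and the atrial median from 0.0626 to -0.0082.

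The edgeR tests called 0 genes at an FDR of 0.01. In control hearts (977 higher and 530 lower at p under 0.05) counts were 37 and 1 at an FDR under 0.05, 86 and 5 with DESeq2, 0 and 0 with limma-voom, 18 and 0 without a filter, 36 and 0 with the pan-leucocyte list as load, and 160 and 2 without the day. Leaving out a heart gave 0 to 1 higher, the 1 without D10 control replicate 3 or D21 control replicate 2, and 0 lower. For D15 against D10 they were 12 and 3 with DESeq2, 0 and 0 with limma-voom, and 892 and 935 without the load as covariate, with 0 and 0 whichever heart was left out. For D21 against D15 they were 21 and 40 at an FDR under 0.05, 38 and 61 with DESeq2, 1 and 15 with limma-voom and 0 and 7 without a filter. Leaving out a heart gave 0 higher and 0 to 4 lower, with 4 without D21 EAM replicate 2 or 3, 3 without D15 EAM replicate 2 and 1 without D10 EAM replicate 3. For EAM against control at D10 they were 11 and 1 with DESeq2, 3 and 0 with limma-voom and 3 and 1 without a filter. Leaving out a heart gave 0 to 5 higher, the 5 without D10 EAM replicate 3, and 0 lower. The cause of these differences was not tested, and calls that 1 tool makes and another does not are uncertain.

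The labels give the groups the same replicate numbers but not what a number marks. In none of 7 pairs of groups were all 4 correlations of same-numbered hearts over 0.1, so the numbers were not taken as pairs. With the replicate block the calls were 4 and 0 in control hearts, 3 and 0 for EAM against control at D10, and 0 for both comparisons of days, with a smallest FDR of 0.0568 for D21 against D15.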

Other observations

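Other lists differed at equal load without passing the FDR limit of 0.01. At D21 against D15, 12 of 20 ribosomal protein genes were higher at an unadjusted p under 0.05 in edgeR (median log2 difference 0.31, against 14.9% of all genes), and 3 of 6 mast cell genes (-0.67) and 4 of 11 immediate early genes (-0.56) were lower, against 10.5%. Of 14 neutrophil genes 2 were lower at that p, although all 14 estimates were below 0 (median -0.71). In D10 EAM hearts against controls 6 of 11 immediate early genes were higher at that p (median 0.56, against 3.79% of all genes), and 4 of 6 erythroid genes (-0.49) and 6 of 15 clock genes (-0.23) were lower, against 2.47%, while 2 clock genes were higher.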
